A study of Mus musculus with 2 samples.

Results

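Mir126a, Mir126b, Mir143 and Mir145a are the microRNA genes of blood vessels described here, which fill 4 of the 2206 lines of each deposited table, 4 summary lines included. They were chosen by gene symbol, through the identifiers of the GENCODE M21 annotation. The rule used no measured value, but it was set with earlier results of these data known. The tissue was labelled as gastrocnemius, a muscle of the calf, taken at postnatal day 4 from male mice of the strain B6CASTF1/J, hybrids of C57BL/6 and CAST parents, for sequencing of small RNA. The labels give 1 group of 2 libraries, biological replicate 2 (animal number 4) and biological replicate 1 (animal number 3), with separate biosamples and a shared donor identifier. No treatment, mutation or second condition was part of the design, so the values below describe each library and the distance between them, and no test of a condition was possible.

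A microRNA gene is transcribed as a longer RNA that is cut to a hairpin and then to a mature strand of about the length of the sequenced reads. The mature strand guides silencing proteins to messenger RNAs that pair with its seed, the bases 2 to 8 from the 5′ end. Mir126a is known as the microRNA of endothelial cells, which line vessels, where it supports vessel integrity by repressing inhibitors of growth factor signalling such as Spred1. Mir143 and Mir145a are known from the smooth muscle cells of vessel walls, where they are made from a common precursor and favour the contractile state, with Klf4 among the targets of the Mir145 microRNA. Fewer cells of a type and less RNA per cell cannot be told apart in such bulk samples.

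The sequences below show why reads of Mir126a and Mir126b can be told apart only by strand. They come from RefSeq on GRCm38.p6, the assembly whose chromosomes mm10 holds. Mir126a is annotated at chr2:26591357-26591429 on the plus strand, and Mir126b at chr2:26591363-26591420 on the minus strand. All 58 bases of the Mir126b hairpin are the reverse complement of bases 7 to 64 of the 73-base Mir126a hairpin. Capitals mark the annotated mature strands in the hairpins and the seed in the mature sequences.
Mir126a hairpin: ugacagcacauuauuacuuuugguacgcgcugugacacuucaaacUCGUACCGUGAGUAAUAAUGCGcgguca
Mir126b hairpin: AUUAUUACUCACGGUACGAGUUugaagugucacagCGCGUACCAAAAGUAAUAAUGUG
miR-126a-3p: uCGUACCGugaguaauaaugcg
miR-126b-5p: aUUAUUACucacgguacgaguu
miR-126b-3p: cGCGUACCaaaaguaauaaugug
The mature strands miR-126a-3p and miR-126b-5p lie over each other for 19 genomic bases, on opposite strands. Their seeds differ, and none of these 3 seeds occurs in another of the 1679 mature microRNAs of that table. The other mature strand of the gene, miR-126a-5p, is named only. Counts are given per gene, so the mature strands of a hairpin are summed.

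The libraries stood far apart in their muscle markers, and every value below stands beside that difference. Replicate 2 held 7240126 reads, of which 3073086 lay on microRNA genes in the sense direction, and replicate 1 held 8522350 and 4458853. Mir206, the microRNA restricted to skeletal muscle, had 101 reads in replicate 2 and 652657 in replicate 1. Mir208a, the microRNA of the heart muscle gene Myh6, had 29718 reads in replicate 2 and 59 in replicate 1. The other 4 genes listed as skeletal muscle markers went both ways. Mir133b, from the same cluster as Mir206, had 10 and 427 reads, while Mir499 had 8633 and 1953, Mir208b 4340 and 1068, and Mir486 1468 and 456. Mir206 was thus nearly missing from the library labelled replicate 2, and Mir208a from the one labelled replicate 1. Of the 5 genes listed for skeletal muscle, 3 had more reads in replicate 2. Whether those 3 genes mark skeletal muscle alone was not tested. Both libraries are named by their labels throughout. Shares are percentages of the sense reads on microRNA genes in a library, with exact 95% Clopper-Pearson intervals that cover counting error only.

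Mir126a was among the microRNA genes with most uniquely placed reads in both libraries. It had 203314 sense reads in replicate 2, a share of 6.62% (6.59 to 6.64%), and 113331 in replicate 1, a share of 2.54% (2.53 to 2.56%). By uniquely placed reads it ranked 4 among all genes of replicate 2 and 11 in replicate 1. All ranks and shares leave out reads placed at more than 1 position, 45.1% of replicate 2 and 35.7% of replicate 1. Genes with copies can therefore stand too low. The share of Mir126a in replicate 2 was 2.60 times that in replicate 1, and the intervals did not overlap. In replicate 2 it stood between Mirlet7g with 261242 reads and Mir143. In replicate 1 it followed Mir23b, which had 113380 reads, a lead of less than the counting error, and preceded Mir23a with 106809. The gene lies within Egfl7, an endothelial gene for a secreted protein that guides vessel formation, on the same strand. Of the 9 Egfl7 transcripts spanning the hairpin, 8 have an intron there and 1 has an exon. It also lies in an intron of Gm20532, a longer coding gene that overlaps Egfl7.

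Mir126b, the annotated gene on the other strand of the same hairpin, was at the limit of detection. It had 1 sense read in replicate 2 and 1 in replicate 1, while a count of 0 would have allowed shares of up to 9.76e-05% and 6.73e-05%. Of the sense reads of both genes together, Mir126b thus held 0.000492% in replicate 2 (1.25e-05 to 0.00274%) and 0.000882% in replicate 1 (2.23e-05 to 0.00492%). These intervals overlap, and no fold between the libraries is given for counts this low. Nearly all reads counted for these 2 genes, in both libraries, came from the strand of Egfl7.

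**Figure D1:**
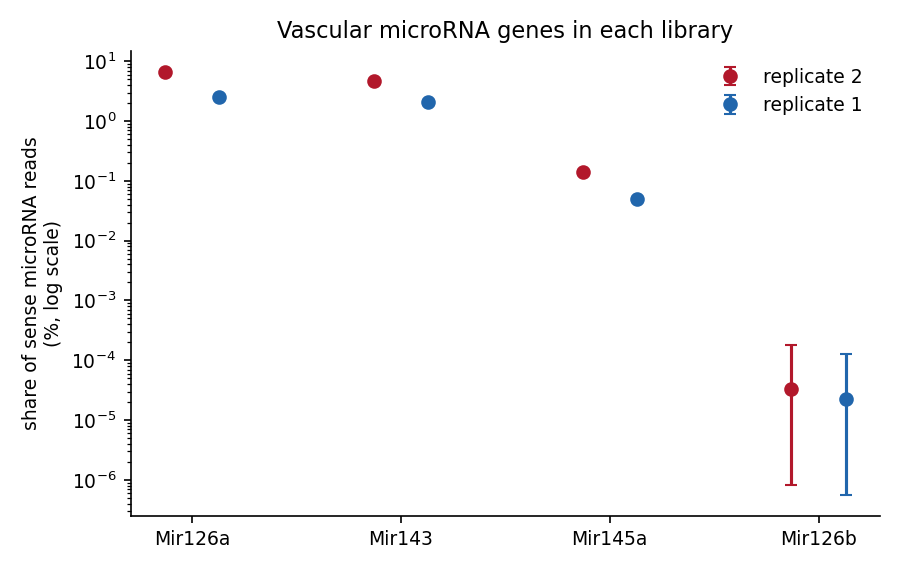
Share of sense microRNA reads (%, log axis) for each gene, with replicate 2 left of replicate 1 and bars for exact 95% counting intervals, which are smaller than the points for the first 3 genes. Mir126a and Mir143 lie above 2% in both libraries, Mir145a lies at 0.140% in replicate 2 and 0.0493% in replicate 1, and Mir126b rests on 1 read in each.

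Because the hairpins overlap, the deposited columns gave very different counts for Mir126a. The column that counts both strands gave it 14 reads in replicate 2 and 5 in replicate 1, since a read overlapping both genes is ambiguous when strand is ignored. The reads so set aside from Mir126a and Mir126b numbered 203301 in replicate 2 and 113327 in replicate 1. They made up 23.5% of all ambiguous reads of replicate 2 (23.41 to 23.59%) and 21.1% of those of replicate 1 (20.97 to 21.19%). The antisense column gave Mir126b 203300 reads in replicate 2 and 113326 in replicate 1. These are the sense reads of Mir126a seen from the other strand, all but 14 and 5 of them.

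Mir126a lost the second largest number of reads in the both-strand column, after Mir378a, the gene with most ambiguous reads. Pairs of annotated microRNA genes on opposite strands were taken by the gene with more sense reads, where it had at least 100 in total. The partner is thus the gene with fewer reads by definition. Of 22 such pairs, 15 had a partner with at most 1 sense read in each library, that of Mir126a included. The share of Mir126b among reads of both strands can be set beside the pair with the highest partner share of these 22. There the gene Mir3074-1 had 58 sense reads in replicate 2 and 44 in replicate 1, against 252 and 124 of its opposite gene Mir24-1. Mir24-1 shares a stretch of 22 bases with Mir24-2 on the same strand, so its counts and this share are uncertain. Mir143 and Mir145a have no annotated microRNA gene on the opposite strand. Their counts in the both-strand and sense columns were identical, and their antisense counts were 0 in both libraries.

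**Figure D2:**
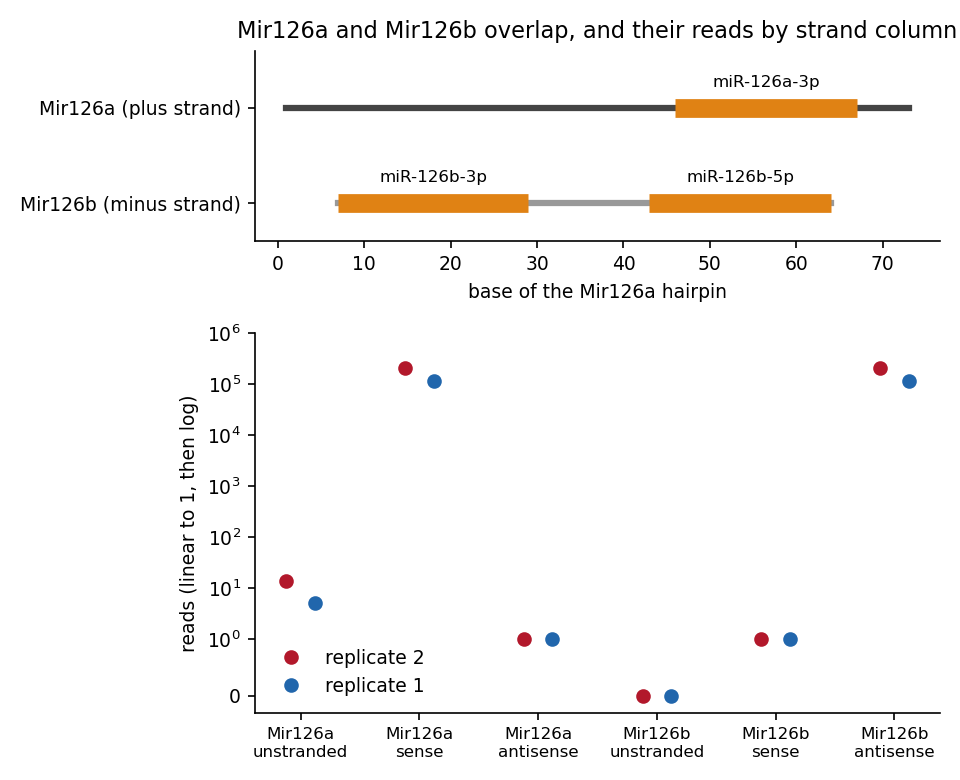
Upper panel, position of both hairpins (lines) and of the annotated mature strands (orange) along the bases of the Mir126a hairpin. Lower panel, reads of Mir126a and Mir126b in the 3 deposited columns (linear to 1, then log), with replicate 2 left of replicate 1, where nearly all of the 203314 and 113331 sense reads of Mir126a reappear among the 203300 and 113326 antisense reads of Mir126b.

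Mir143 was nearly as abundant as Mir126a. It had 146321 sense reads in replicate 2, a share of 4.76% (4.74 to 4.79%) at rank 5, and 94477 in replicate 1, a share of 2.12% (2.11 to 2.13%) at rank 13. Its share in replicate 2 was 2.25 times that in replicate 1. In replicate 2 Mir23a followed it with 145021 reads, and in replicate 1 it lay between Mir23a and Mir322, which had 84821.

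Mir145a was far less abundant than its neighbour. It had 4301 sense reads in replicate 2, a share of 0.140% (0.136 to 0.144%) at rank 57, and 2196 in replicate 1, a share of 0.0493% (0.0472 to 0.0514%) at rank 115. Its share in replicate 2 was 2.84 times that in replicate 1. Its neighbours in rank did not differ from it beyond counting error, Mir208b with 4340 reads and Mir146 with 4180 in replicate 2, and Mir668 with 2199 and Mir1983 with 2085 in replicate 1.

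Mir143 and Mir145a lie 1302 bases apart on the minus strand of mm10 chromosome 18, at 61649196 to 61649258 and at 61647825 to 61647894, and no GENCODE M21 gene overlaps either. Carmn, a long noncoding RNA gene of heart and smooth muscle on the same strand, ends 367 bases upstream of Mir143. Bvht, a noncoding gene on the opposite strand named for its part in heart development, lies 353 bases from Mir145a. Neither gene shares a stretch of 22 or of 18 bases with any other annotated microRNA gene on either strand, and Mir126a shares one only with Mir126b, on the opposite strand. Reads of Mir126a, Mir143 and Mir145a were therefore not split among annotated copies. Other parts of the genome were not searched.

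Ratios between these genes inside a library do not depend on how libraries are scaled. There were 34.0 Mir143 reads per Mir145a read in replicate 2 (33.0 to 35.1) and 43.0 in replicate 1 (41.2 to 44.9). The pair thus kept its order while the ratio was lower in replicate 2 by a factor of 0.791, a log2 difference of −0.34 (−0.41 to −0.26). There were 1.39 Mir126a reads per Mir143 read in replicate 2 (1.38 to 1.40) and 1.20 in replicate 1 (1.19 to 1.21), a log2 difference of 0.21 (0.20 to 0.23). For Mir126a to Mir145a the ratios were 47.3 in replicate 2 (45.9 to 48.7) and 51.6 in replicate 1 (49.5 to 53.9), a log2 difference of −0.13 (−0.20 to −0.05).

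All 3 differences between the libraries exceeded counting error, and none reached 1.5-fold. Per base of annotated hairpin, Mir126a to Mir143 came to 1.20 in replicate 2 and 1.04 in replicate 1, and Mir143 to Mir145a to 37.8 and 47.8. The order Mir126a, Mir143, Mir145a was therefore the same in both libraries, on both scales.

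**Figure D3:**
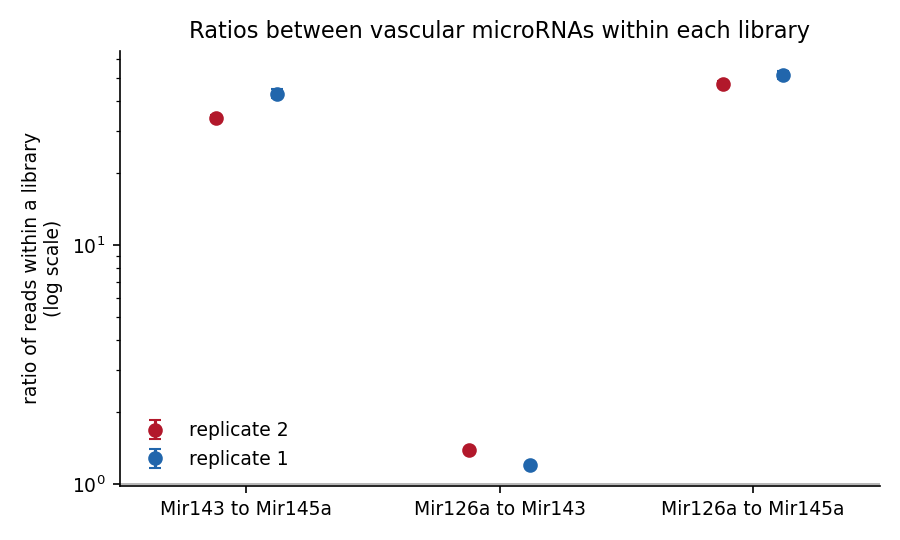
Ratio of reads of 2 genes within each library (log axis), with replicate 2 left of replicate 1 and bars for exact 95% counting intervals, most of them smaller than the points. Mir126a exceeds Mir143 slightly in both libraries, at 1.39 and 1.20, while both exceed Mir145a by 34.0 to 51.6 times.

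Between the libraries Mir126a, Mir143 and Mir145a all had the higher share in replicate 2. Log2 ratios of replicate 2 over replicate 1, scaled by the trimmed mean of M values (TMM) over all genes, were 0.95 for Mir126a (0.94 to 0.96), 0.74 for Mir143 (0.73 to 0.75) and 1.08 for Mir145a (1.01 to 1.16). With at least 10 reads in total as the condition, 410 genes were compared, the 3 among them, and Mir126b was not. A gene was called at a ratio of at least 2-fold. By that rule 1 of the 3, Mir145a, was called higher and 0 were called lower, against 25.6% of the 410 genes called higher and 33.4% called lower. The count among the 3 is near that background.

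The call depended on the scaling. With DESeq2 size factors 0 of the 3 were called, with log2 ratios of 0.84, 0.63 and 0.97 for Mir126a, Mir143 and Mir145a, where 22.7% of all genes were called higher. With TMM computed on genes with at least 10 reads, a choice made after seeing the data, 0 were called at 0.75, 0.54 and 0.88, against 20.7%. With total reads all 3 were called, at 1.38, 1.17 and 1.51, against 35.6%. The direction was the same under each of these scalings.

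A scaling shifts all log2 ratios by the same amount, so their distances from the median of the 410 genes cannot change with it. That median was −0.13 under TMM, and Mir126a stood 1.09 above it, Mir143 0.87 and Mir145a 1.21. Higher ratios than theirs were found for 109 genes (26.6%) in the case of Mir126a, 133 (32.4%) for Mir143 and 95 (23.2%) for Mir145a. The interquartile range of the 410 ratios ran from −1.88 to 1.02, and 39 genes lay within the span of the 3. Among 30 genes with at least 10000 reads in each library, Mir126a and Mir143 included, the interquartile range was 0.19 to 0.94. Mir143 lay within that range and Mir126a just above it. Mir145a, with fewer reads, is not in that set, and its ratio was higher than both. Regardless of direction, the median log2 difference per gene was 1.26 for the 410 genes and 0.77 for the 30.

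**Figure D4:**
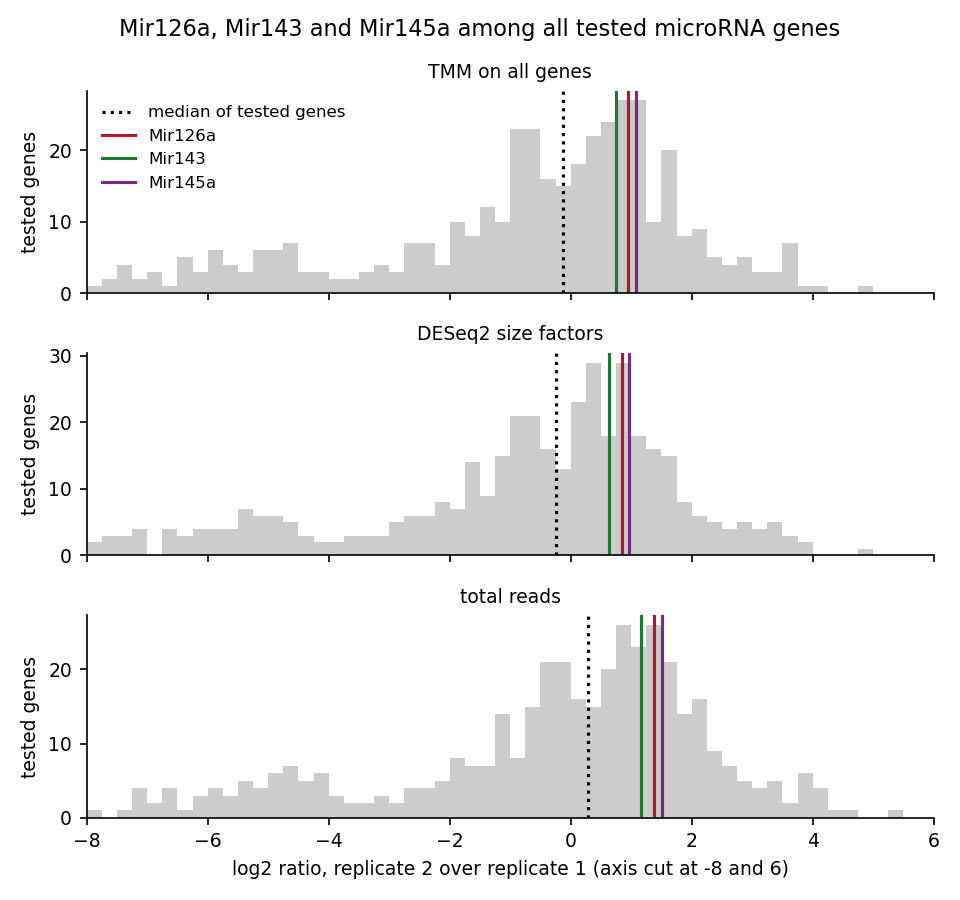
Log2 ratio of replicate 2 over replicate 1 for 410 microRNA genes under 3 scalings, with the median (dotted) and Mir126a, Mir143 and Mir145a as vertical lines. The axis is cut at −8 and 6. A scaling shifts all ratios alike, so the 3 lines necessarily keep their distances from each other and from the median, to its right. They move from 0.74 to 1.08 under TMM up to 1.17 to 1.51 with total reads.

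The genes whose ratios were closest, over these 2 libraries, were sought among 81 other genes with at least 1000 reads in each. For Mir126a they were Mir140, Mir125a and Mirlet7d, with log2 ratios of 0.95, 0.99 and 0.99. For Mir143 they were Mir28a, Mirlet7g and Mir652, at 0.75, 0.77 and 0.77. For Mir145a they were Mir328, Mir423 and Mir320, at 1.08, 1.10 and 1.10. A likeness of this kind rests on a single ratio per gene.

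Other microRNAs known to act in endothelial cells or vessel growth differed in both directions. All 17 genes of that list passed the condition on reads, and 6 were called higher in replicate 2 and 2 lower, where 25.6% and 33.4% of all genes were. Their median log2 ratio was 0.52, against −0.13 for all genes. Mir23a, of a cluster that affects sprouting of vessels, held 4.72% of replicate 2 and 2.40% of replicate 1, a log2 ratio of 0.55. Mir23b held 3.77% and 2.54%, at 0.14, and Mir27b, from the same cluster, 0.580% and 0.300%, at 0.52. Mir322, whose human counterpart MIR424 is induced in endothelium by low oxygen, held 1.45% of replicate 2 and 1.90% of replicate 1, at −0.82. Mir130a, which represses inhibitors of vessel growth, stood at −0.33, and Mir92-1, a brake on vessel growth, at 1.20.

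None of these reached the share of Mir126a in replicate 2. In replicate 1 the share of Mir23b, 2.543%, matched that of Mir126a, 2.542%, within counting error. The genes called lower were Mir296 (−1.87) and Mir503 (−2.56), and the highest ratio was that of Mir221 (3.59), a microRNA of endothelial and smooth muscle proliferation; these were named after their values were seen. With total reads 7 of the 17 were called higher and 2 lower, where 35.6% and 29.8% of all genes were. With TMM on genes with at least 10 reads 3 were called higher and 3 lower, against 20.7% and 37.8% of all genes. Mir92-1, Mir24-1, Mir24-2, Mir218-1 and Mir218-2 share a stretch of 22 bases with another microRNA gene on the same strand, so their counts are uncertain.

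Among microRNAs known to act on the state of smooth muscle, other than Mir143 and Mir145a, 9 of 10 passed the condition on reads, and 2 were called higher and 2 lower, where 25.6% and 33.4% of all genes were. These counts are near or below that background. The median log2 ratio was −0.89, against −0.13 for all genes. By uniquely placed reads the most abundant was Mir21a, which favours smooth muscle growth, with 0.189% of replicate 2 and 0.389% of replicate 1 and a log2 ratio of −1.47. Mir204 stood at −0.95, Mir221 at 3.59 and Mir222 at 2.47. Under DESeq2 size factors 5 of the 9 were called lower, against 36.8% of all genes, and under TMM on genes with at least 10 reads 6, against 37.8%. The Mir26a, Mir133a and Mir1a genes of that list have copies with shared stretches, and their counts are uncertain. Reads placed at more than 1 position, 45.1% of replicate 2 and 35.7% of replicate 1, were not counted for any gene. In uniquely placed reads these 10 genes together held 0.347% of replicate 2 and 0.417% of replicate 1, under the share of Mir143 alone.

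**Figure D5:**
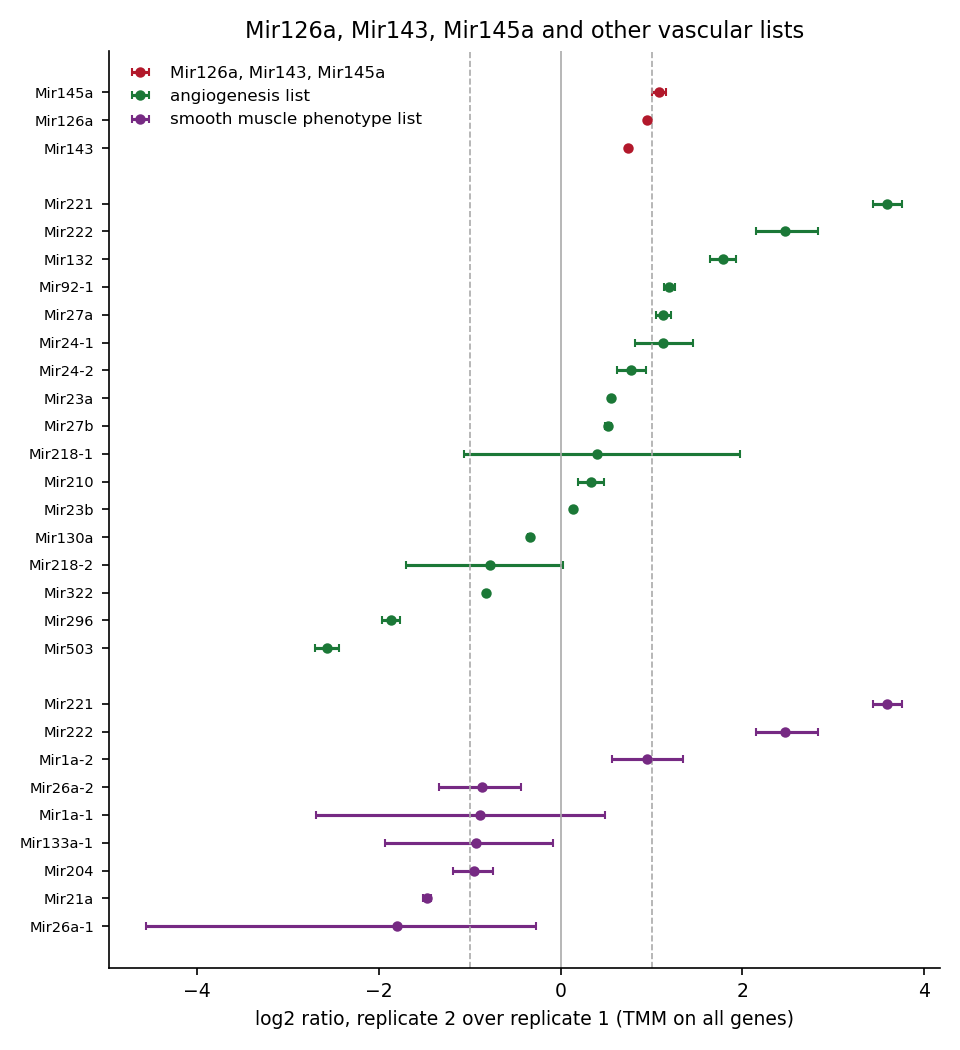
Log2 ratio of replicate 2 over replicate 1 under TMM for Mir126a, Mir143 and Mir145a and for 2 lists of other vascular microRNAs, with exact 95% counting intervals and dashed lines at 2-fold. The 3 genes lie between 0.74 and 1.08, while the lists run from −2.56 to 3.59.

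Markers of other cells differed between the libraries as well, and their calls stand against the same 25.6% of all genes called higher and 33.4% called lower. The red blood cell genes Mir451a and Mir144 were both called higher, with a summed share of 0.0979% in replicate 2 and 0.0220% in replicate 1. Of 5 white blood cell genes 4 were compared and 2 called higher, Mir155 and Mir150, with sums of 0.293% and 0.0538%, and Mir142b was at 0. Mir142, the pan-leukocyte gene of that list, stood at 0.90, and Mir223 of myeloid cells at −0.96. The fibroblast list held 0.281% of replicate 2 and 0.591% of replicate 1, with 3 of 4 genes compared and all 3 called lower. Of these, Mir199a-2 had 12 and 254 reads in replicates 2 and 1, and Mir199b 58 and 275. Mir199a-1 was at 0 in replicate 2 and at 1 read in replicate 1. Stretches shared with other microRNA genes were not sought for this list, so these low counts are uncertain. The epithelial list held 0.0424% and 0.00401%, with 4 of 5 called higher. Under DESeq2 size factors and under TMM on genes with at least 10 reads, 3 of the epithelial genes were called higher and 1 white blood cell gene lower, and with total reads all 5 epithelial and 3 white blood cell genes were called higher. The calls of red blood cell and fibroblast genes were the same under these 3 scalings. The 6 Mir9 and Mir124a genes of neurons were at 0 in both libraries, but they have copies among which reads cannot be placed.

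The part of these other cells in the shares of Mir126a, Mir143 and Mir145a was not tested. The vascular genes summed to 11.5% in replicate 2 (11.5 to 11.6%) and to 4.71% in replicate 1 (4.69 to 4.73%), far above either list of blood markers. The skeletal muscle list held 0.474% of replicate 2 and 14.7% of replicate 1, nearly all of it Mir206 in replicate 1. Of its 5 genes 3 were called higher and 2 lower, and these counts were the same under the other scalings. The log2 ratios were 2.25 for Mir499, 2.13 for Mir208b, 1.80 for Mir486, −5.17 for Mir133b and −12.53 for Mir206. Their median is the 1.80 of Mir486 and does not describe genes spread so widely. Mir206 had the lowest ratio of the 410 genes and Mir208a the highest, at 9.06. Whether both libraries hold the same tissue was not tested. The animal, the library and any difference in tissue coincide here, and their parts in the differences cannot be told apart.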

How the data were processed

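Small RNA libraries with inserts under 30 bases, per the labels, were counted per microRNA gene by the authors. The deposited values are raw read counts with a column each for sense reads, antisense reads and reads of either strand, on mm10 and GENCODE M21, per the deposited descriptions. The columns carry no names, and their strands were read from the layout of STAR gene counts and from the values. For the aligner and the trimming, nothing is stated (not given in the sources used here). Each of the 2202 identifiers matched GENCODE M21. The 4 summary lines stayed out of library sizes. In the sense column they held 8.60% unmapped, 45.1% multimapping and 3.83% unassigned reads in replicate 2, against 9.97%, 35.7% and 2.05% in replicate 1, with 0 ambiguous reads. In the both-strand column 11.9% of replicate 2 and 6.31% of replicate 1 were ambiguous.

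The sense column was used unless stated. Log2 ratios divide replicate 2 by replicate 1 after adding a prior count of 1, on TMM sizes from edgeR 4.0.16 over all genes, with exact binomial 95% intervals. Intervals of differences between ratios use a normal approximation. With 1 group no test was made and no p-value is given; a gene whose reads in total reached 10 was called at an absolute log2 ratio of at least 1. A count of 0 was taken to allow 3 counts. Reads are not independent molecules. Alternatives were DESeq2 1.42.0 size factors, total reads, a prior of 0.5, minimum counts of 1 and 100, the both-strand column, other denominators and each library alone. Interval coverage was tested only on counts simulated with counting error alone and known library sizes. That setting cannot show how the intervals hold where the scaling is uncertain. The genes named are the 4 studied, their neighbours in rank, the 3 closest ratios per gene, and up to 6 genes per list by mean share; others are marked. Genes and lists were chosen with earlier results of these data known. Python 3.11.15, scipy 1.17.1 and R 4.3.3 were used.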

Additional observations from a re-analysis of the deposited data

How the results depend on the processing

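The direction of the log2 ratios of Mir126a, Mir143 and Mir145a was the same under every scaling tried, and their size was not. For Mir126a, Mir143 and Mir145a, TMM over all genes gave 0.95, 0.74 and 1.08, DESeq2 size factors 0.84, 0.63 and 0.97, and total reads 1.38, 1.17 and 1.51. Scalings chosen after seeing the data gave 0.75, 0.54 and 0.88 (TMM on genes with at least 10 reads), 1.13, 0.92 and 1.25 (TMM on genes with at least 100 reads), and 1.03, 0.82 and 1.16 (DESeq2 on genes with at least 10 reads). These scalings moved the median of the 410 genes by −0.20 to 0.43 from its value under TMM, and higher genes made up 43.4% of calls under TMM, 38.1% with DESeq2 size factors, 54.5% with total reads and 35.4% with TMM on genes with at least 10 reads. Without strand the ratio of Mir126a was 1.42, from 14 and 5 reads, its mean share was 0.000381% in place of 4.58%, and that of Mir126b was 0% in place of 2.75e-05%. The mean log2 ratio of Mir126a to Mir143 was then −13.78 in place of 0.37, and that of Mir126a to Mir145a −8.52 in place of 5.63, because overlapping reads are set aside. Per base of hairpin, Mir126a to Mir143 was 0.16. As a share of all reads Mir143 averaged 1.56%, in place of 3.44%, and Mir126b 1.28e-05%. With either library left out, shares ran from 2.54 to 6.62% for Mir126a, 2.12 to 4.76% for Mir143, 0.0493 to 0.140% for Mir145a and 2.24e-05 to 3.25e-05% for Mir126b, and log2 ratios from 5.09 to 5.43 for Mir143 to Mir145a, 0.26 to 0.47 for Mir126a to Mir143 and 5.56 to 5.69 for Mir126a to Mir145a. Genes at least 2-fold apart numbered 242 of the 410, and 407 with at least 1 read as the condition. More genes were compared under that second condition, and at such low counts the prior count of 1 can set the call. No ratio between libraries was computed for Mir126b, at 1 read each. No paired analysis was possible because the labels give a single group. Depth limits Mir126b alone among the 4 genes.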

Other observations

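The pair of Mir143 and Mir145a was set beside other neighbouring microRNA genes, a comparison chosen after the data were seen. Pairs were adjacent genes on the same strand within 5000 bases, each with at least 100 reads in each library, which gave 54 pairs that share genes and clusters and are not independent. The log2 ratios between libraries differed by 0.34 between Mir143 and Mir145a, and 10 of the 54 pairs differed by less. The median difference was 0.67, and the pairs ran from 0.01 for Mir134 and Mir485 to 3.43 for Mir15b and Mir16-2. In level, by uniquely placed reads, the pair was among the more unequal. Other pairs include genes with copies whose counts are uncertain, such as Mir27b and Mir24-1, at 70.7 in replicate 2 and 107.9 in replicate 1. Shared stretches were not sought for every gene of the pairs. Mir143 had 34.0 times the reads of Mir145a in replicate 2 and 43.0 times in replicate 1, against medians of 3.99 and 3.78 over the pairs, and 7 pairs in replicate 2 and 5 in replicate 1 were more unequal. Mir93 and Mir106b, neighbours in a proliferation cluster, had a ratio of 2.61 in replicate 2 and 2.53 in replicate 1, with log2 ratios of 1.46 and 1.42.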
